A study of Mus musculus with 12 samples.

Results

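Wild-type (WT) mouse embryonic stem (ES) cells were examined between day 8 and day 15 of differentiation, using 4 of the 12 arrays of the study, 2 per day. These arrays were chosen by their labels alone, and no measured value entered the choice. The study set WT cells beside cells that lack *Terc*, the RNA component of telomerase, to ask how short telomeres affect differentiation toward epidermis. It gives the knockout cells of its arrays as G4, a late generation of *Terc*-/- mice, and as those with the shortest telomeres. Cells of both genotypes were of C57BL/6 background and were profiled undifferentiated at day 0 and after 8 and 15 days, with 2 arrays per group. The ES cells were kept on mouse embryonic fibroblast feeders, formed embryoid bodies (EBs) in hanging drops for 4 days in medium without LIF, the cytokine that holds mouse ES cells undifferentiated, and were then plated, several EBs to a well. No sorting step and no directing factor is named, so each sample is a mixture of cell types. The labels call the samples of a group biological replicates, but those of days 8 and 15 name no ES cell line, so p-values measure only the spread between these samples. The study names N33 as its WT line, and the labels of day 0 name N12 beside it.

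Differentiating EBs follow the early embryo in outline. ES cells first pass through a state like the epiblast, the tissue that gives rise to the body, in which *Fgf5*, *Otx2* and *Dnmt3b* come on. Nodal, Wnt and FGF signals then induce the primitive streak, the site where mesoderm and endoderm form, under T-box and homeobox factors such as *Eomes* and *Mixl1*. Blood, vessels, heart, connective tissue, extraembryonic endoderm, neural tissue and surface epithelium come after, side by side in the same culture. The week between days 8 and 15 therefore spans the end of the first program and the spread of the later ones.

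A probe set is the set of short oligonucleotides that reads a transcript, and each gave a linear intensity per array. A gene was read from the brightest of its probe sets, and 18193 genes were read. Intensities of different genes cannot be ranked against each other, since each probe binds differently. The 4 WT arrays had medians of 50.6 to 53.1, so that values below about 50 lay in the dimmer part of every array and may include background. Arrays have no read depth, and their number limits the precision. The replicates were not equally alike: over all probe sets the log2 values of day 8 replicate 2 correlated at r = 0.975 and 0.984 with the arrays of day 15, against 0.964 and 0.972 for day 8 replicate 1. Day 8 replicate 2 thus lay closer to day 15. The results are therefore also given over the fits that left out 1 WT array in turn. Such a fit leaves 1 array in a group, and the spread of that group then drops out of the estimate. Its counts move with that estimate as well as with the values of the array.

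Of the probe sets, 3102 of 45037 (6.89%) were higher and 4125 (9.16%) were lower at day 15 at an adjusted p under 0.05 in the limma fit. Among genes, 1776 (9.76%) rose and 2046 (11.2%) fell, the shares to set beside each list count below. In each of these genes both arrays of day 15 lay on 1 side of both arrays of day 8. A fit to the 4 WT arrays alone, with no spread taken from other groups, called 161 genes higher and 60 lower. The median change over all genes was 0.01 on the log2 scale, and on arrays of near equal medians a shift of all genes together cannot be seen. With 1 WT array left out, between 1065 and 2217 genes rose and between 962 and 2634 fell, and the lowest count of each came without day 15 replicate 1. The 15 genes that rose most were *Fmod*, *Igfbp1*, *Ogn*, *Islr*, *Dcn*, *Lyz1*, *Tyrobp*, *Epha3*, *C1qb*, *Serpina1b*, *C1qc*, *Mrc1*, *Col6a2*, *Tac2* and *F13a1*. They hold matrix proteoglycans, proteins of macrophages, and products of yolk sac and liver. The 15 that fell most were *Mixl1*, *Eomes*, *Tdgf1*, *Lhx1*, *Fgf5*, *Pou5f1*, *Fgf8*, *Eras*, *Vrtn*, *Dnmt3b*, *Nanog*, *Gbp2*, *Nkx1-2*, *Trh* and *Cth*. Most of these are known from the pluripotent epiblast or the primitive streak. Since each sample is bulk RNA, fewer cells of a type and less RNA per cell cannot be told apart.

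**Figure D1:**
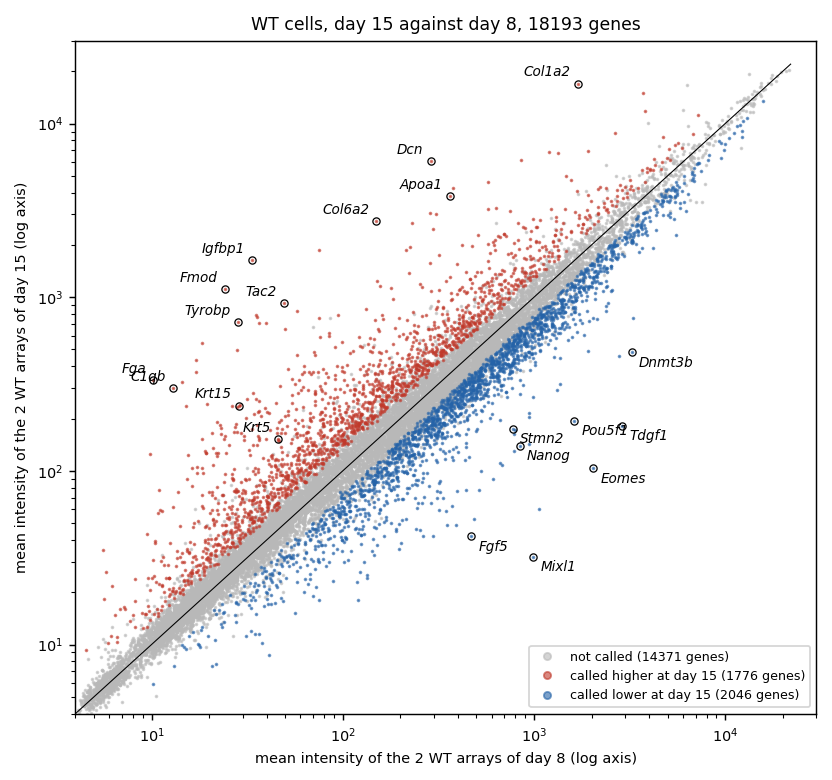
Mean intensity of each of 18193 genes over the 2 WT arrays of day 8 (x axis) and of day 15 (y axis), both on log axes, with genes that rose (1776) in red, genes that fell (2046) in blue and the line of equal level in black. The named genes that rose lie up to 48.8-fold above that line (*Igfbp1*) and those that fell up to 31.0-fold below it (*Mixl1*).

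The pluripotency program was still measurable at day 8 and had mostly fallen by day 15. Of 24 pluripotency genes read, 20 fell and 0 rose, with a median log2 change of -1.58 beside 0.01 for all genes. *Pou5f1*, which encodes Oct4, the factor that holds the pluripotent state, was read at 2090 and 1165 at day 8 and at 108 and 281 at day 15. The day 15 arrays both lay far below the day 8 arrays, and the means differed 8.38-fold (log2 change -3.16 ± 0.39 SE, adjusted p = 0.00125). *Nanog*, the homeobox partner of Oct4, was read at 1024 and 664, then at 80.4 and 199 (log2 change -2.71 ± 0.36 SE, adjusted p = 0.00144). *Sox2*, which binds DNA with Oct4 and also serves neural progenitors, fell less, from 668 and 508 to 136 and 269. *Sall4*, a zinc finger factor, fell from 1929 ± 466 to 726 ± 378 (SD, n = 2). *Eras*, a Ras protein of ES cells, fell 7.19-fold. *L1td1*, *Fgf4*, *Dppa2* and *Zfp42* also fell, with log2 changes of -2.46, -2.38, -2.33 and -2.23.

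Not every member of the list fell. *Klf4*, a factor of naive pluripotency that epithelia also use, was read at 217 and 662 at day 8 and at 283 and 819 at day 15. The days overlapped, and replicate 2 was the higher array on both. *Tfcp2l1*, another naive factor, was likewise read at 132 and 213, then at 158 and 292. *Dppa5a*, an RNA-binding protein of ES cells, was read at 7336 and 7820, then at 1526 and 5499, which lay apart but did not pass (adjusted p = 0.0665). *Prdm14*, a regulator of germ cells and naive cells, was dim on both days. In *Pou5f1*, *Nanog*, *Sox2*, *Sall4*, *Eras* and *Dppa5a*, day 15 replicate 2 was higher than replicate 1. Between 11 and 21 of the 24 genes fell with a WT array left out, 11 without day 8 replicate 1 and 13 without day 8 replicate 2.

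Genes of the primed epiblast fell together. Of 6 read, 5 fell and 0 rose, with a median log2 change of -2.36. *Fgf5*, the classic marker of this state, was read at 680 and 258 at day 8 and at 42.6 and 41.3 at day 15 (log2 change -3.32 ± 0.57 SE, adjusted p = 0.00519). Both day 15 values lay under the array medians. *Dnmt3b*, a de novo DNA methyltransferase, fell 6.73-fold, from 3238 ± 1261 to 481 ± 91.2 (SD, n = 2). *Otx2*, *Pou3f1* and *Zic2*, transcription factors of epiblast and anterior neural tissue, had log2 changes of -2.26, -2.33 and -2.39. Between 5 and 6 of the 6 genes fell in the fits with 1 array left out.

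The promoter of *Nanog* is shown because it is a gene of the falling group whose start region holds the octamer-like word ATGCAAA, the kind of word that Oct4 and its partners are known to read. The sequence runs 250 bases up to the base before the transcription start, on the plus strand at chr6:122707239-122707488 of GRCm38.p6, as given by RefSeq for the first of its starts there, with the word (here as its reverse complement) in capitals.
Nanog: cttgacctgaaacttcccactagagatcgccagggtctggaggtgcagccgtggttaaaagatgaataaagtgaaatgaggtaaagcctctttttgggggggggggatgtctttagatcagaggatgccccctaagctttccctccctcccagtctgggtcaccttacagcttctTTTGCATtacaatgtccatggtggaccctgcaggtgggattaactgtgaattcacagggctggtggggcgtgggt
Of the 16 pluripotency genes with a promoter in the table, 3 held the word on either strand (*Nanog*, *Sox2* and *Zfp42*), against 4.65% of all 27025 genes there. A match describes letters and does not show that a factor was bound.

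The primitive streak program also fell. Of 12 genes read, 8 fell and 0 rose, with a median log2 change of -2.26. With 1 WT array left out, that median lay between -1.46 (without day 8 replicate 1) and -2.82 (without day 8 replicate 2). The listed streak gene *T* was not read. *Mixl1*, a homeobox factor of streak mesoderm and endoderm, was read at 1413 and 575 at day 8 and at 31.8 and 32.4 at day 15. The day 15 arrays lay below the array medians, and the day 8 arrays lay clearly above them (log2 change -4.81 ± 0.41 SE, adjusted p = 0.000199). *Eomes*, the T-box factor that starts mesoderm and definitive endoderm, was read at 2902 and 1183, then at 89.2 and 118 (log2 change -4.18 ± 0.36 SE, adjusted p = 0.000196). *Lhx1*, a homeobox factor of the anterior streak, was read at 1518 and 604, then at 47.2 and 73.7. *Fgf8*, the streak growth factor that lets mesoderm migrate, fell 9.13-fold, and *Mesp1*, which marks the earliest heart mesoderm, fell 7.01-fold. *Evx1*, a homeobox factor of the posterior streak, fell from 469 and 226 to 48.4 and 69.0. *Gsc*, a factor of the organizer, and *Wnt3*, the ligand that starts the streak, fell from lower levels, by 2.03 and 1.15 on the log2 scale. In all of these genes day 8 replicate 1 was the higher of the 2 day 8 arrays, by between 1.84-fold (*Wnt3*) and 4.02-fold (*Mesp1*).

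The Nodal axis, which induces the streak, fell with it. Nodal signals through activin receptors with the co-receptor Cripto, encoded by *Tdgf1*, and turns on its own inhibitors. Of 8 genes read, 6 fell and 0 rose, with a median log2 change of -1.96. *Tdgf1* was read at 3657 and 2125 at day 8 and at 97.1 and 266 at day 15 (log2 change -4.12 ± 0.41 SE, adjusted p = 0.000487). The days did not come near each other. The ligand *Nodal* fell from 944 ± 246 to 204 ± 74.9 (SD, n = 2). The DNA-binding partner *Foxh1* was read at 990 and 344, then at 114 and 107. The inhibitors *Lefty1*, *Lefty2* and *Cer1* fell by 1.70, 2.22 and 1.23 on the log2 scale. The 2 members that did not pass, *Acvr1b* and *Acvr2b*, encode receptors.

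Wnt genes moved both ways. Of 23 read, 6 rose and 6 fell, with a median log2 change of -0.08. Those that fell hold direct targets and a streak ligand: *Sp5*, a target in the streak, was read at 434 and 233, then at 64.5 and 75.9. *Lef1*, a nuclear effector, was read at 362 and 420, then at 118 and 155. *Axin2*, a feedback inhibitor and common readout of the pathway, fell 1.77-fold. *Wnt8a* fell by 1.39 on the log2 scale. Those that rose hold secreted antagonists. *Sfrp2*, which binds Wnt proteins outside the cell, was read at 147 and 118 at day 8 and at 963 and 748 at day 15 (log2 change 2.69 ± 0.18 SE, adjusted p = 2.2e-05). *Sfrp1* was read at 409 and 431, then at 2364 and 1610. *Dkk2*, which binds the Wnt co-receptor, was read at 61.2 and 247, then at 742 and 535. The days were apart for each of these antagonists. Without day 15 replicate 1 or without day 8 replicate 1 only 2 genes of the list rose, and without day 8 replicate 1 only 3 fell.

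**Figure D2:**
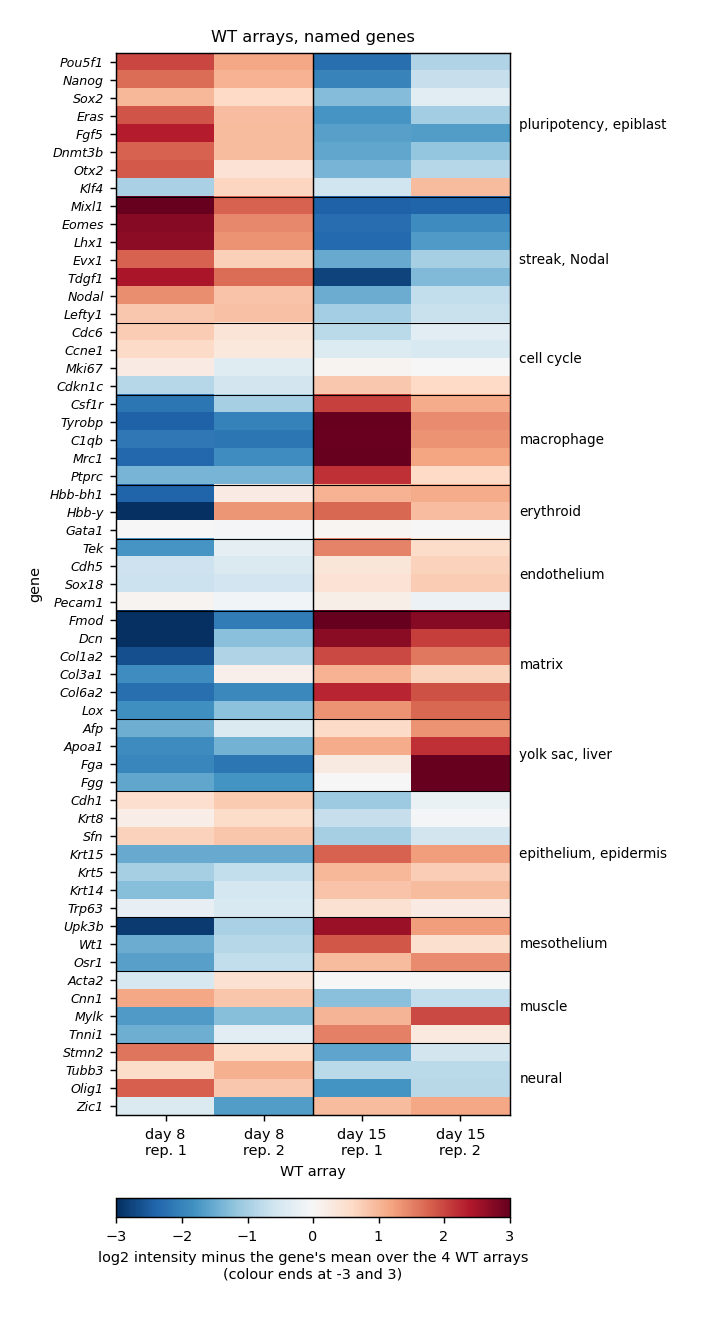
Log2 intensity of named genes (rows, grouped by cell type or process) in the 4 WT arrays (columns), each minus the gene's mean over these arrays, with red above and blue below that mean and colours ending at -3 and 3. *Mixl1* and *Eomes* turn from red to blue at day 15 and *Fmod*, *Dcn* and *Tyrobp* from blue to red, while *Klf4*, *Hbb-y* and *Acta2* differ more between replicates than between days.

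Genes of DNA replication fell by smaller steps. Of 30 cell cycle genes read, 17 fell and 0 rose, with a median log2 change of -0.50. *Cdc6*, which loads the replicative helicase, was read at 542 and 420, then at 184 and 252. *Ccne1*, the cyclin of entry into S phase, fell 1.83-fold, and *Rrm2*, a subunit of ribonucleotide reductase, 1.69-fold. *Pcna*, the sliding clamp, fell 1.45-fold, and the helicase subunit *Mcm5* 1.60-fold. *Mybl2*, a cell cycle factor abundant in ES cells, fell by 1.31 on the log2 scale. *Mki67* and *Cdk1*, in contrast, did not pass: *Mki67*, which encodes the proliferation antigen Ki-67, was read at 2477 and 1612, then at 2203 and 2095, and the day 8 arrays enclosed those of day 15. Between 8 and 22 of the 30 genes fell with a WT array left out, 8 without day 15 replicate 1 and 10 without day 8 replicate 1, and 10 fell in a fit to the 8 arrays of days 8 and 15 alone.

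Inhibitors of the cell cycle moved by gene. *Cdkn1c*, the imprinted inhibitor p57, was read at 1090 and 1352, then at 3459 and 2977, and rose 2.64-fold. *Cdkn2c* rose 2.08-fold and *Cdkn1b* 1.35-fold. *Cdkn1a*, the inhibitor p21 and best known target of p53, was read at 2674 and 4924, then at 3144 and 3979, with the days overlapping. Among other p53 targets *Sesn1* rose 1.66-fold, while *Pmaip1*, which promotes cell death, fell 2.65-fold, *Gadd45a* 2.30-fold and *Sesn2* 1.73-fold. In all, 4 of the 16 genes of this list rose and 4 fell, with a median log2 change of -0.44. Only 2 rose without day 15 replicate 1, without day 8 replicate 1 or without day 8 replicate 2, and only 2 fell without day 15 replicate 1. The growth regulators of early embryos fell: *Myc* was read at 229 and 216, then at 83.6 and 76.1, and *Lin28a*, which blocks maturation of let-7, fell 3.04-fold. *Igf2bp1* and *Mycn* fell 1.71-fold and 1.63-fold. Of 7 such genes 4 fell and 0 rose.

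Among genes of telomerase and telomeres, 5 of 13 fell and 0 rose, with a median log2 change of -0.46. *Dkc1*, which encodes dyskerin, the core of the telomerase RNA particle and of other small RNA particles, was read at 2893 and 1987, then at 843 and 1021 (log2 change -1.37 ± 0.16 SE, adjusted p = 0.000442). Its partners *Nhp2* and *Gar1* fell 2.43-fold and 1.98-fold, and *Wrap53*, which guides such RNAs to Cajal bodies, fell 1.71-fold. *Terf1*, a shelterin protein, fell 1.60-fold. *Tert*, the reverse transcriptase, was read at 100 and 67.5, then at 58.1 and 60.6, and did not pass (adjusted p = 0.114). The count of 5 became 3 without day 15 replicate 1 and 9 without day 8 replicate 2.

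Among DNA methylation enzymes, 4 of 8 fell and 2 rose. *Dnmt3l*, the cofactor of de novo methylation in ES cells, fell 3.45-fold. *Tet1*, which oxidizes methylcytosine in ES cells, fell 1.98-fold, and *Uhrf1*, which guides maintenance methylation, 1.73-fold. *Tet2* rose 1.72-fold. *Dnmt3a*, the second de novo enzyme, was read at 1070 and 837, then at 1799 and 1200, and rose 1.57-fold. Of its 5 probe sets 4 rose and 1 fell. Of the 2 genes that rose, 0 were left without day 15 replicate 1 and 1 without either array of day 8. In the Polycomb repressive complex 2, which places the repressive methyl mark on histone H3, 3 of 10 genes fell and 0 rose. *Eed*, the subunit that reads the mark, fell from 1297 and 1243 to 563 and 801, while the catalytic *Ezh2* fell 1.58-fold and the accessory *Mtf2* 1.33-fold. *Suz12* was read at 1856 and 1321, then at 1287 and 1427, and *Ezh1*, the alternative catalytic subunit, at 229 and 225, then at 254 and 337. Neither passed on its brightest probe set, while 3 of the 6 probe sets of *Suz12* fell. The count of 3 became 1 without either array of day 15 and without day 8 replicate 1.

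All 17 macrophage genes read rose, with a median log2 change of 2.74, beside 9.76% of all genes. The list was drawn up with earlier results of these data known, so the count describes these genes only. *Tyrobp*, the signaling adaptor of myeloid receptors, was read at 24.4 and 32.2 at day 8 and at 1082 and 354 at day 15 (log2 change 4.47 ± 0.42 SE, adjusted p = 0.000304). It went from under the array medians to well above them on both day 15 arrays. The 3 chains of complement C1q, which macrophages secrete, went together: *C1qb* was read at 13.1 and 12.8, then at 451 and 147, *C1qc* rose 21.9-fold and *C1qa* 6.73-fold. *Mrc1*, the mannose receptor, was read at 12.0 and 16.8, then at 505 and 141. *Csf1r*, the receptor for the macrophage growth factor, was above the medians already at day 8, at 130 and 296, and reached 2462 and 1274. *Ptprc*, the pan-leukocyte antigen CD45, rose 7.99-fold and *Cd68*, a lysosomal protein, 3.71-fold. *Spi1*, which encodes the master factor PU.1, rose 2.30-fold, from 60.4 and 57.3 to 192 and 78.5.

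In the macrophage genes described so far, and in *Fcer1g*, the Fc receptor chain, day 15 replicate 1 was higher than replicate 2, by between 1.48-fold (*C1qa*) and 4.04-fold (*Fcer1g*). The summed level of the list was 649 and 891 at day 8 and 8640 and 3633 at day 15. Between 15 and 17 of the 17 genes rose with a WT array left out. *Lyz1* and *F13a1*, a lysozyme and the A chain of coagulation factor XIII, rose 25.5-fold and 29.3-fold. *Lyz1* is close in sequence to *Lyz2*, which rose 4.14-fold, and its probes may read both. *Pf4*, a chemokine of platelets that macrophages also make, was read at 37.4 and 77.7, then at 1318 and 338, while of 7 megakaryocyte genes only *Itga2b* rose beside it, by 0.48 on the log2 scale. *Itga2b* did not pass without day 15 replicate 1 or day 8 replicate 1.

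Promoters of macrophage genes that rose are shown, since these genes moved together. The capitals mark GAGGAA, the kind of word that PU.1, a factor of the Ets family, is known to read, or its reverse complement TTCCTC. Each sequence runs 250 bases up to the base before the RefSeq start in GRCm38.p6: *Mrc1* on the plus strand at chr2:14229164-14229413, *C1qb* on the minus strand at chr4:136886201-136886450 and its neighbour *C1qc* on the minus strand at chr4:136892915-136893164.
Mrc1: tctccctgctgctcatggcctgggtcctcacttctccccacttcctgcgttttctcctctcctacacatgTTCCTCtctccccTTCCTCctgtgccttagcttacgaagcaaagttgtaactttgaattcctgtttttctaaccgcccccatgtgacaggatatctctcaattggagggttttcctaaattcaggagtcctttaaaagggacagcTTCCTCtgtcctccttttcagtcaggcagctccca
C1qb: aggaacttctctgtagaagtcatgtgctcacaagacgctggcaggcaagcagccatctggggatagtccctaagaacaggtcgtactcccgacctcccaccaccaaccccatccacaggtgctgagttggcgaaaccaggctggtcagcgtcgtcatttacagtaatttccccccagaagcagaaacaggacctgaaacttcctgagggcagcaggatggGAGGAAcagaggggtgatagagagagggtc
C1qc: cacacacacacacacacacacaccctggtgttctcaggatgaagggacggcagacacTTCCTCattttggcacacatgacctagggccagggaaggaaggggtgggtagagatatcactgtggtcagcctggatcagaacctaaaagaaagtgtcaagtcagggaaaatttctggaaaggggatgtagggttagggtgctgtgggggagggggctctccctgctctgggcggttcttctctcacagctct
Of the 11 macrophage genes with a promoter in the table, 8 held the word on either strand, against 25.9% of all 27025 genes. The promoters shown all come from these 8. The longer word GAGGAAGT was held by 1 of the 11, against 2.79% of all genes. A match does not show that PU.1 was bound, and a link between the word and the rise was not tested.

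Of 12 erythroid genes, 0 passed in the limma fit, and 3 of them had an unadjusted p under 0.05. *Hbb-bh1* and *Hbb-y*, embryonic beta-like globins, were read at 79.1 and 499 and at 24.5 and 963 at day 8. At day 15 they were read at 873 and 910 and at 1272 and 728. The day 8 replicates differed 39.3-fold in *Hbb-y*, and replicate 2 overlapped the day 15 arrays. *Hba-x*, the embryonic alpha-like globin, showed the same order, with 47.0 and 462, then 711 and 422. Adjusted p was 0.0538 for *Hbb-bh1* and 0.229 for *Hbb-y*. The other 2 probe sets of *Hbb-bh1* did rise, so that 0 holds for the brightest probe set of each gene. In the list 1 gene rose when all probe sets were averaged, with quantile normalization or with a replicate block. The same count was found without trend or robust moderation. Over brighter probe sets, with a mean of at least 100, 1 of 4 rose. *Gata1* and *Klf1*, the erythroid transcription factors, stayed between 32.4 and 35.5 and between 23.7 and 33.3, under the array medians. Leaving out a WT array gave between 0 and 3 rising genes, 3 of them without day 8 replicate 2.

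Of 14 endothelial genes, 10 rose and 0 fell, with a median log2 change of 0.78. *Tek*, the angiopoietin receptor, was read at 55.6 and 156, then at 536 and 280. *Cdh5*, the cadherin of endothelial junctions, was read at 54.4 and 62.3, then at 108 and 136, and *Sox18*, a vessel factor, at 40.9 and 43.3, then at 87.2 and 109. *Cldn5* rose 2.02-fold, and *Emcn* and *Vwf* rose by 1.27 and 0.96 on the log2 scale at dim levels. *Kdr*, the VEGF receptor that also marks early mesoderm, was read at 617 and 319, then at 978 and 460, with overlap. *Pecam1* was read between 20.6 and 26.2 on the 4 arrays and did not pass. Without day 15 replicate 1 the count of 10 became 6.

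Genes of mesothelium and urogenital mesoderm rose in 7 of 9 cases, with a median log2 change of 2.24. *Upk3b*, a uroplakin of mesothelium, was read at 21.2 and 78.7 at day 8 and at 940 and 370 at day 15 (log2 change 3.85 ± 0.58 SE, adjusted p = 0.00282). *Wt1*, the Wilms tumor factor of mesothelium and kidney, was read at 35.2 and 54.1, then at 355 and 138. *Osr1*, a factor of intermediate mesoderm, rose 4.96-fold and *Tcf21*, of organ mesenchyme, 4.80-fold. *Upk1b* rose 4.14-fold, and *Msln*, the antigen mesothelin, rose 1.94-fold to a level near the array medians. In *Upk3b*, *Wt1*, *Tcf21* and *Upk1b* day 15 replicate 1 was the higher array, and in *Osr1* replicate 2. Without day 15 replicate 1 the count of 7 became 4.

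Genes of the extracellular matrix rose from day 8 to day 15. Of 17 genes of collagens and fibrillar matrix, 10 rose and 0 fell, with a median log2 change of 1.71. *Col1a2*, a chain of type I collagen, was read at 783 and 2619 at day 8 and at 19252 and 14683 at day 15 (log2 change 3.55 ± 0.51 SE, adjusted p = 0.00229). *Col1a1*, the other chain, was read at 568 and 2376, then at 4795 and 5172. The 3 chains of type VI collagen, a microfibril of connective tissue, rose between 8.34-fold (*Col6a3*) and 18.3-fold (*Col6a2*). *Col6a2* went from 133 and 166 to 3091 and 2383. *Col5a2* rose 7.96-fold. *Col3a1* and *Postn* did not pass: *Col3a1* was read at 2516 and 10068, then at 18771 and 14372, and *Postn*, which encodes periostin, at 846 and 7011, then at 11889 and 8330. In both the day 8 replicates differed by 4.00-fold or more while the days did not overlap. These calls hold for the brightest probe set, and the other of the 2 probe sets of *Col3a1* rose. *Fn1*, fibronectin, was read at 6388 and 9912, then at 11207 and 8870, with overlap.

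Small leucine-rich proteoglycans, which bind collagen fibrils, rose in 6 of 10 cases, and 0 fell. *Fmod*, fibromodulin, was read at 12.5 and 36.0 at day 8 and at 1221 and 1013 at day 15 (log2 change 5.71 ± 0.39 SE, adjusted p = 6.31e-05). Its day 8 values lay under the array medians. *Dcn*, decorin, was read at 97.9 and 479, then at 7385 and 4822. *Ogn*, osteoglycin, rose 21.7-fold, *Lum*, lumican, 7.23-fold and *Bgn*, biglycan, 2.76-fold. In *Fmod*, *Dcn*, *Ogn* and *Lum* day 8 replicate 2 was the higher day 8 array, and it remained below both arrays of day 15. Enzymes that shape the matrix followed in 6 of 13 cases. *Lox*, which cross-links collagen, was read at 120 and 181, then at 1081 and 1411, and *Mmp2*, a gelatinase, rose 2.91-fold. *Timp3*, a protease inhibitor held in the matrix, rose 2.20-fold. In basement membrane, 4 of 14 genes rose, with *Col4a6* 4.34-fold higher. The 4 became 2 without day 15 replicate 1 or day 8 replicate 1, and 8 without day 8 replicate 2. Over the 8 arrays of days 8 and 15 alone, 2 basement membrane genes and 3 matrix enzymes rose.

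Fibroblast markers were included because feeder fibroblasts could have been carried over. Of 11, 5 rose and 0 fell. *Pdgfra*, the receptor of mesenchymal cells, was read at 895 and 1164, then at 2731 and 2335. *Fap*, an enzyme of activated fibroblasts, rose from 9.73 and 9.10 to 30.4 and 56.8. *Thy1* was read at 125 and 82.3, then at 114 and 168, with overlap. The summed level of the list was 8814 and 21917 at day 8 and 34214 and 28393 at day 15, and its part in the matrix result was not tested. *Islr*, a matrix protein of mesenchyme, rose 25.0-fold and *Epha3*, an ephrin receptor, 17.9-fold. The mesenchymal factor *Zeb1* rose 2.57-fold and the cadherin *Cdh2* fell 2.00-fold, while 10 of the 13 genes of mesenchymal and EMT factors did not pass. Of the 2 factors that rose, 0 were left without day 15 replicate 1 or without day 8 replicate 1. With 1 WT array left out, between 8 and 16 collagen and matrix genes rose, 16 without day 8 replicate 2, and between 4 and 5 proteoglycans. Of the matrix enzymes 3 rose without either array of day 15 and 2 without day 8 replicate 1, and of the fibroblast markers 3 rose without day 15 replicate 1 or day 8 replicate 1.

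Some growth factor genes of mesenchyme rose. In the insulin-like growth factor axis, 5 of 13 genes rose and 1 fell. *Igf1* was read at 48.1 and 103, then at 594 and 588, and *Igfbp5*, a binding protein, at 661 and 835, then at 4069 and 2231. *Igfbp4* rose 1.78-fold. *Igfbp1*, a binding protein of liver and decidua that was not on the list, was read at 28.2 and 38.6, then at 1144 and 2113 (log2 change 5.56 ± 0.25 SE, adjusted p = 4.96e-06). *Igf2*, the fetal growth factor, was read at 9971 and 16534, then at 20794 and 17815, and did not pass. In the TGF-beta list 5 of 12 genes rose and 0 fell, with a median log2 change of 1.05. The ligand *Tgfb3* was read at 39.7 and 75.6, then at 627 and 308, the receptor *Tgfbr2* rose 2.62-fold and *Ltbp3*, which anchors latent ligand, 2.53-fold. Without day 15 replicate 1 only 3 genes of each of these lists rose, and without day 8 replicate 2 the TGF-beta list had 9. The insulin-like growth factor list had 0 falling genes in each of the 4 fits with a WT array left out.

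Secreted proteins of yolk sac and liver rose in 14 of 17 cases and 0 fell, with a median log2 change of 2.41. *Apoa1*, the main protein of high-density lipoprotein, was read at 306 and 425 at day 8 and at 2470 and 5193 at day 15 (log2 change 3.31 ± 0.32 SE, adjusted p = 0.000269). *Apob*, the protein of low-density lipoprotein, was read at 342 and 802, then at 2019 and 4384, and *Rbp4*, which carries retinol, at 651 and 2006, then at 5400 and 8108. *Afp*, alpha-fetoprotein of visceral endoderm and fetal liver, was read at 1254 and 2582, then at 5136 and 8795. *Ttr*, transthyretin, rose 3.09-fold. The fibrinogen chains rose unevenly: *Fga* was read at 11.0 and 9.46, then at 51.0 and 613, *Fgb* at 52.7 and 97.1, then at 210 and 1316, and *Fgg* at 30.4 and 25.7, then at 89.9 and 900. *Serpina1b*, an antitrypsin gene of a near-identical family that its probes may read together, rose 22.6-fold. *Alb*, albumin, was read at 24.6 and 30.0, then at 37.1 and 104, and missed the threshold (adjusted p = 0.0581).

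Here day 15 replicate 2 was the higher array, by between 1.50-fold (*Rbp4*) and 12.0-fold (*Fga*), the reverse of the macrophage genes. The summed level of the list was 32089 on replicate 1 and 64787 on replicate 2, after 7554 and 16016 at day 8. With 1 WT array left out, between 6 and 14 of the 17 genes rose, 6 of them without day 8 replicate 1. In a fit to the 8 arrays of days 8 and 15, without the day 0 arrays in the estimate of spread, 7 rose. Among 11 endoderm transcription factors 3 rose and 0 fell, but 0 rose without day 8 replicate 1, 1 rose and 2 fell without day 15 replicate 2, and 1 rose over the 8 arrays. *Gata6*, of extraembryonic endoderm and heart, rose 2.26-fold. *Hnf4a*, which drives genes of visceral endoderm and liver, was read at 97.1 and 158, then at 184 and 376. Of the 4 probe sets of *Hnf4a* 1 rose. *Gata4* was read at 404 and 385, then at 473 and 559 (adjusted p = 0.0587).

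**Figure D3:**
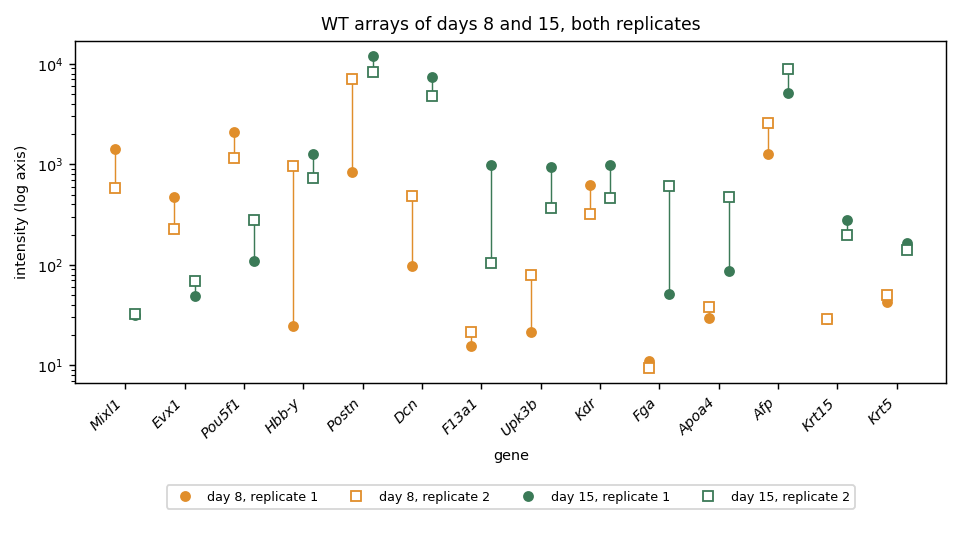
Intensity (log axis) of 14 genes on each WT array, with day 8 in orange, day 15 in green, replicate 1 as filled circles and replicate 2 as open squares, and a line joining the replicates of a day. *Hbb-y* spans 24.5 to 963 within day 8, *F13a1* is higher on replicate 1 of day 15 (979 against 104) and *Fga* on replicate 2 (613 against 51.0), while *Krt5* and *Krt15* differ little within a day.

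Genes of simple epithelium fell in a minority of cases. Of 17 genes of simple epithelium and its junctions, 4 fell and 0 rose, with a median log2 change of -0.60. *Cdh1*, E-cadherin, was read at 2311 and 2820, then at 772 and 1435 (log2 change -1.28 ± 0.24 SE, adjusted p = 0.00614). *Pkp2*, of desmosomes, *Esrp1*, a splicing factor of epithelia, and *Grhl2*, an epithelial transcription factor, fell 1.72-fold, 1.74-fold and 1.52-fold. The keratins *Krt8* and *Krt18* and the adhesion molecule *Epcam* were each read lower on average, but *Krt8*, at 10653 and 13439, then 5750 and 8809, and *Krt18* and *Epcam* did not pass. These calls hold for the brightest probe sets, and the other of the 2 probe sets of *Epcam* rose. Without day 15 replicate 1 the count of 4 became 2.

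Some basal epidermal genes, the kind the study followed, rose from low levels. Of 19 genes of basal epidermis and surface ectoderm 7 rose and 2 fell, with a median log2 change of 0.23, and of 13 genes of stratified epidermis 2 rose and 1 fell. Over brighter probe sets alone, with a mean of at least 100, the basal list turned to 1 higher and 3 lower of 8, with a median of -0.56. Over all 9623 genes of that setting 1383 were higher and 2039 lower. *Krt15*, a keratin of basal and hair follicle cells, was read at 28.9 and 28.5 at day 8 and at 278 and 197 at day 15 (log2 change 3.03 ± 0.27 SE, adjusted p = 0.00013). *Krt5*, the main type II keratin of the basal layer, was read at 42.1 and 50.0, then at 166 and 140 (log2 change 1.73 ± 0.15 SE, adjusted p = 9.64e-05). Its partner *Krt14* was read at 19.9 and 33.6, then at 87.2 and 92.8. All of these went from under to above the array medians, with the days well apart. *Trp63*, whose product p63 sets up the epidermal lineage, was read at 21.9 and 18.8, then at 35.6 and 30.8. It rose 1.63-fold (adjusted p = 0.0112) but stayed under the medians on all 4 arrays, and 1 of its 4 probe sets rose. *Col17a1*, of hemidesmosomes, rose 2.88-fold, and *Tfap2a*, a factor of surface ectoderm and neural crest, was read at 48.3 and 35.5, then at 78.4 and 89.8.

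*Krt4* and *Krt13*, a keratin pair of stratified mucosa, rose 2.57-fold and 1.94-fold. *Krt1*, a keratin of the suprabasal epidermis, was read at 23.3 and 23.3, then at 34.9 and 28.7, and missed the threshold (adjusted p = 0.0507). *Lor*, the envelope protein loricrin, fell 1.37-fold. *Sfn*, the 14-3-3 protein of epithelia, was read at 250 and 275, then at 77.3 and 105, and *Itga6*, an integrin that ES cells also carry, fell 1.68-fold. When a WT array was left out, between 5 and 7 basal genes rose and between 2 and 4 fell, 4 of them without day 15 replicate 2. *Lor* did not pass without day 15 replicate 1 or day 8 replicate 1.

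BMP signaling, which favors epidermis over neural tissue in ectoderm, moved in few members. Of 14 ligands, receptors and Smads 1 rose and 2 fell, shares of the order of the 9.76% and 11.2% of all genes. *Bmp2* was read at 1613 and 1549, then at 528 and 659 (log2 change -1.42 ± 0.18 SE, adjusted p = 0.000738). *Bmp4* was read at 1818 and 2124, then at 1428 and 1449, and *Bmp7* at 116 and 90.9, then at 131 and 134, and neither passed. The signal transducer *Smad1* was read at 1272 and 1066, then at 542 and 739, and its relative *Smad5* at 430 and 512, then at 775 and 602. Of the 3 probe sets of *Smad5* 1 rose and 1 fell. Among 18 targets and antagonists 4 rose and 3 fell. *Msx2*, a target, fell 3.39-fold, *Id4* and the inhibitory *Smad7* fell 1.48-fold and 1.33-fold, while *Bambi*, a decoy receptor, rose 2.18-fold. The antagonists *Chrd* and *Sostdc1* rose by 0.50 and 1.35 on the log2 scale. *Fst*, the antagonist at the center of the study, was read at 643 and 440, then at 159 and 377. Its days were apart, but the change did not pass (log2 change -1.12 ± 0.37 SE, adjusted p = 0.0725). This holds for its brightest probe set, and the other of its 2 probe sets fell. Of the targets and antagonists 2 rose without day 8 replicate 1. The ligand and Smad list had 0 rising genes without day 15 replicate 1 and 2 without day 8 replicate 2.

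Muscle genes changed in few cases, to be read beside the 9.76% higher and 11.2% lower of all genes. Of 22 cardiac genes 4 rose and 0 fell, with a median log2 change of 0.28. *Tnni1*, the slow troponin I of embryonic heart, was read at 364 and 789, then at 2840 and 1213. *Hand2*, a factor of the right ventricle and limb, was read at 463 and 962, then at 2756 and 1731. *Tbx5* and *Ryr2* rose by 0.67 and 0.71 on the log2 scale at low levels. *Tnnt2*, cardiac troponin T, was read at 351 and 421, then at 762 and 450, and did not pass. The cardiac count of 4 became 0 without day 15 replicate 1, 1 without day 8 replicate 1, 2 without day 8 replicate 2 and 1 over the 8 arrays of days 8 and 15. Of 12 smooth muscle genes 2 rose and 1 fell. *Mylk*, myosin light chain kinase, was read at 25.0 and 33.1, then at 163 and 317, and *Des*, desmin, rose 1.62-fold, but *Cnn1*, calponin, was read at 219 and 173, then at 40.9 and 58.2. *Acta2*, smooth muscle actin, was read at 7145 and 13620, then at 9935 and 10049, so that both day 15 arrays lay within the day 8 range. *Tagln* was read at 4795 and 9281, then at 3310 and 3786, and did not pass. Of 15 skeletal muscle genes 2 rose and 2 fell: *Acta1* and *Mylpf* fell 2.92-fold and 3.10-fold, and *Tnni2* and *Myog* rose by 1.32 and 0.46 on the log2 scale. Of these 2 rising genes 0 were left without either array of day 8, with an offset of 32 or over the 8 arrays, and 1 without day 15 replicate 1. Only 1 of the 2 that fell passed without day 15 replicate 1 or day 8 replicate 2. In smooth muscle 1 rose without day 15 replicate 1 and 3 fell without day 8 replicate 1.

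Of 20 neuronal genes 1 rose and 4 fell, with a median log2 change of 0.03. Over brighter probe sets, with a mean of at least 100, 4 of 6 neuronal genes fell and 0 rose, with a median of -1.44. Of all 9623 genes of that setting 2039 fell and 1383 rose. Of 16 neural progenitor genes 3 rose and 1 fell, beside 9.76% and 11.2% of all genes. *Stmn2*, a tubulin regulator of growing axons, was read at 1048 and 504, then at 115 and 235. *Nefl* and *Ina*, neurofilament proteins, fell 3.09-fold and 2.45-fold. *Tubb3*, the neuronal tubulin, was read at 128 and 183, then at 49.6 on both arrays. *Dcx*, of migrating neurons, rose 2.05-fold to a level under the medians. *Olig1* and *Olig2*, factors of motor neuron and oligodendrocyte precursors, fell 6.18-fold and 3.70-fold. *Zic1*, of dorsal neural tissue, was read at 50.0 and 21.4, then at 132 and 151, and *Fabp7*, of radial glia, at 91.8 and 51.5, then at 311 and 251. *Lhx2* rose 2.30-fold. *Tac2*, which encodes neurokinin B, was read at 41.5 and 56.9, then at 1256 and 591, an 18.8-fold rise. In the neural crest list 4 of 10 rose and 0 fell, with *Ednrb*, the endothelin receptor, 4.00-fold higher, but only 1 rose without day 15 replicate 1 or without day 8 replicate 1.

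Genes of body position rose at low levels. Of 33 Hox genes 12 rose and 2 fell, with a median log2 change of 0.41. *Hoxc10*, of the posterior trunk, was read at 44.5 and 88.9, then at 179 and 176, and *Hoxd8* at 49.4 and 116, then at 184 and 200. *Hoxc4*, *Hoxd10*, *Hoxa2* and *Hoxa10* rose by 1.29, 1.29, 1.18 and 1.11 on the log2 scale. *Hoxd9* rose 1.90-fold and *Hoxb4* 1.81-fold. The members that fell, *Hoxd1* and *Hoxb1*, belong to the first paralog group, which is the first to come on in the streak. *Hoxd1* was read at 87.8 and 47.5, then at 24.2 and 23.6. With 1 WT array left out, between 7 and 14 Hox genes rose, 7 without day 15 replicate 1 or day 8 replicate 1, where also only 1 fell.

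Retinoic acid, which regulates Hox genes, is made by *Aldh1a* enzymes and degraded by *Cyp26a1*, and in this axis 6 of 12 genes rose and 1 fell. *Cyp26a1* was read at 1852 and 872, then at 206 and 425 (log2 change -2.10 ± 0.37 SE, adjusted p = 0.00484). *Aldh1a1* was read at 10.7 and 33.7, then at 132 and 121, and *Aldh1a2* rose 2.95-fold. The receptor *Rarb*, itself a target, rose 3.18-fold, and the binding proteins *Crabp1* and *Crabp2* rose 3.58-fold and 1.84-fold. *Dhrs3*, which limits retinal, rose 1.60-fold. In each fit with 1 WT array left out, 6 genes rose and 1 fell.

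Other lists gave smaller or mixed changes, to be read beside the 9.76% higher and 11.2% lower of all genes. Of 16 imprinted genes 4 rose and 2 fell: *Dlk1*, a fetal growth regulator, was read at 1713 and 5746, then at 17358 and 12843, *Meg3*, its non-coding neighbour, rose 2.51-fold, with 2 of its 11 probe sets rising, *Sgce* rose 2.16-fold, and *Phlda2*, which limits placental growth, fell 3.94-fold. *Snrpn* fell 1.42-fold. Of 15 genes of interferon response and antigen presentation 5 rose and 2 fell. *Ifit1* was read at 23.1 and 51.2, then at 158 and 256, *Ifit3* rose 4.00-fold and *B2m*, beta-2 microglobulin, 2.43-fold, while *Psmb8*, an immunoproteasome subunit, and *Irf1* fell 2.74-fold and 2.26-fold. Of 9 complement genes 4 rose, with *Serping1*, the C1 inhibitor, 4.99-fold higher. Of 7 adipocyte genes 4 rose. *Fabp4* and *Lpl*, which macrophages also express, are among them. Of 12 germline genes 2 fell, *Ddx4* and *Sycp3*, 3.00-fold and 2.62-fold. Left-out arrays moved several of these counts. Of the imprinted genes 2 rose and 0 fell without day 15 replicate 1, 8 rose without day 8 replicate 2, and only 1 fell in each of the other fits. Of the interferon genes 3 rose without day 8 replicate 2 and 1 fell without day 15 replicate 1. Of the germline genes 4 fell without day 15 replicate 2 and 1 without day 8 replicate 1. Of the complement genes 2 rose without day 15 replicate 2 and 1 without day 8 replicate 1, and 2 rose over the 8 arrays of days 8 and 15.

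Housekeeping programs gave few calls. Of 10 ribosomal protein genes only *Rps2* fell, 1.17-fold, and of 13 cholesterol genes only *Idi1*, 1.78-fold. Of 15 glycolysis genes *Pfkm* rose and *Pgam1* fell, 1.41-fold each. Of 14 cartilage and bone genes 1 rose and of 6 trophoblast genes *Elf5* rose, by 0.59 on the log2 scale at a dim level. Several of these calls were lost with a WT array left out. *Elf5* passed in none of these 4 fits, and *Pfkm* passed only without day 8 replicate 1. *Pgam1* and *Idi1* did not pass without day 15 replicate 1 or day 8 replicate 1. Without day 8 replicate 1 the glycolysis list had 4 rising genes and the ribosomal list 2 rising and 2 falling ones. The glycolysis list had 3 falling genes without replicate 2 of either day.

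**Figure D4:**
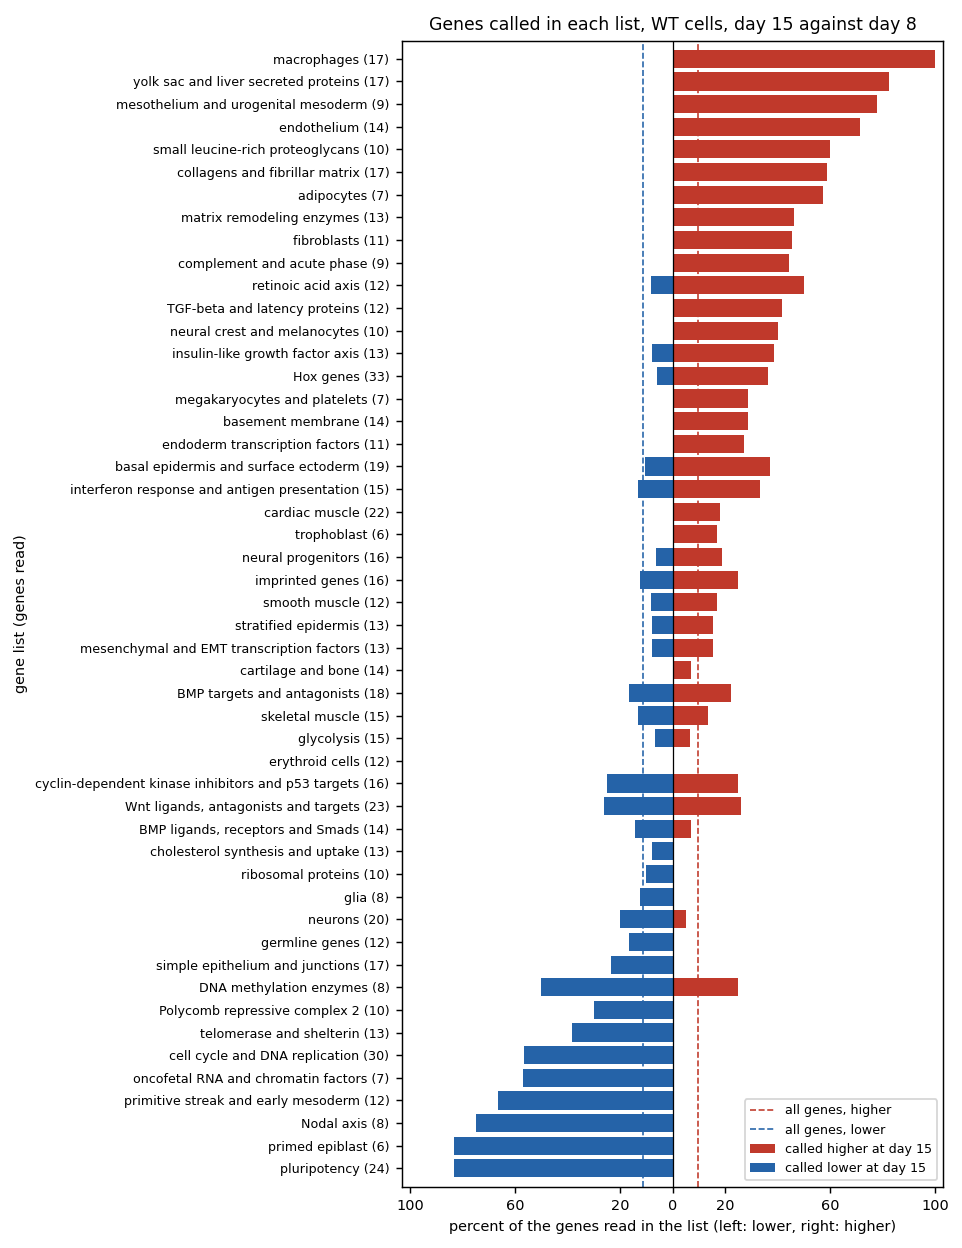
For each of 50 gene lists (rows, number of genes read in brackets), the percent of its genes that rose (red, right) and fell (blue, left) in WT cells, with dashed lines at the percent of all genes (9.76 higher, 11.2 lower). Macrophage genes stand at the top with 17 of 17 higher and pluripotency genes at the bottom with 20 of 24 lower.

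The way the replicates differed ran through many of these groups. Among the 1776 genes that rose, 1213 were higher on day 8 replicate 2 than on replicate 1, and 1236 were higher on day 15 replicate 1 than on replicate 2. Among the 2046 that fell, 1488 were lower on day 8 replicate 2 and 1580 were lower on day 15 replicate 1. These counts describe genes chosen by the same arrays and carry no test. The median absolute log2 difference between the replicates of a group in WT cells was 0.194 (day 8) and 0.164 (day 15), and in KO cells 0.119 and 0.150. At day 0 it was 0.105 in WT and 0.132 in KO cells. The limma fit pooled the spread over all 6 groups. The SE and adjusted p of the WT change thus rest partly on groups whose replicates were closer than those compared, and may be too small. Whether the WT cultures differed in pace, in cell makeup or in handling was not tested.

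The same week was measured in G4 *Terc*-/- (KO) cells, whose arrays share no sample with the WT comparison. In KO cells 4 of 18193 genes (0.022%) passed between day 8 and day 15. A count in 1 genotype does not show a difference, so the difference between the changes was itself tested, as an interaction in the same limma fit. It passed in 124 genes (0.682%), with a more positive change in WT cells for 82 and a more negative one for 42. The median log2 change of the lists was -0.51 in KO and -1.58 in WT cells for pluripotency, -0.41 and -2.26 for the primitive streak, 0.06 and 2.74 for macrophages, 0.78 and 1.71 for collagens, and 1.33 and 2.41 for secreted proteins of yolk sac and liver. These medians were not tested against each other.

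Of the 124 genes, 25 were members of the 50 lists. *Tdgf1* was read in KO cells at 3789 and 3276 at day 8 and at 3438 and 2678 at day 15, a log2 change of -0.22 against -4.12 in WT cells (adjusted p = 0.033). *Eomes* changed by -1.19 in KO cells, against -4.18. *C1qc* stayed in KO cells between 23.9 and 27.8 on all 4 arrays, against a log2 change of 4.31 in WT cells (adjusted p = 0.014). *Fmod* changed by 1.29 in KO cells, against 5.71. *Krt5* was read in KO cells at 58.8 and 48.0, then at 57.7 and 60.2, a log2 change of 0.15 against 1.73 (adjusted p = 0.011). *Sfrp2* changed by 0.40 in KO cells, against 2.69 (adjusted p = 0.0056). For *Trp63* the changes were 0.57 and 0.71 and the difference did not pass (adjusted p = 0.88). Nor did it pass for *Dcn*, *Lum*, *Afp* and *Mixl1*, where KO cells changed by 2.83, 3.93, 3.45 and -2.47. The number of genes that passed in this comparison moved widely when 1 array was left out. Such a fit drops the spread of that group from the estimate. Its count thus moves with that estimate as well as with the values of the array. Fewer genes passed without any of the KO arrays. In the named genes, every difference that had passed kept its sign in each of these fits.

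**Figure D5:**
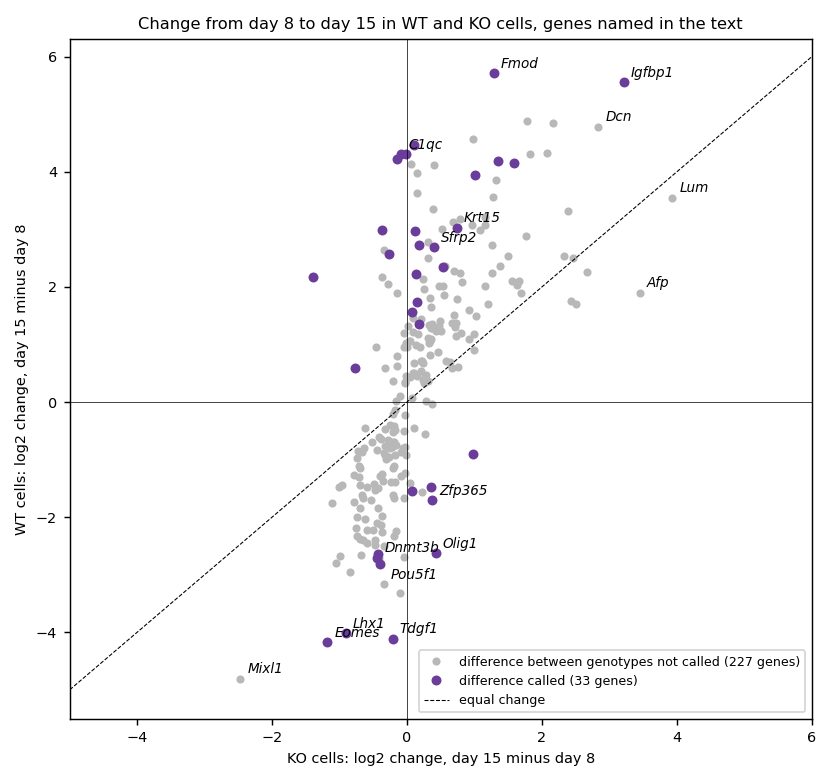
Log2 change from day 8 to day 15 in KO cells (x axis) and WT cells (y axis) for the genes named in the text, with genes in which the difference passed in purple, the others in grey, and equal change as a dashed line. *Fmod*, *C1qc* and *Tdgf1* lie far from that line, at WT changes of 5.71, 4.31 and -4.12.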

How the data were processed

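The authors deposited linear Affymetrix 430 2.0 intensities, a value for every probe set on every array. MAS5 is named in the submitters' processing notes and CapitalBio's own software in the published methods, and versions and settings were not given in the sources read here. The day 8 and day 15 arrays shared 1 scale. The day 0 arrays were on another and entered only the estimate of spread.

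The 64 control probe sets were left out and 45037 were kept, of which 34945 carried 1 symbol, 932 several and 9160 none. Symbols were updated through gene IDs, of which 34741 matched RefSeq. Intensities were floored at 1, taken to log2 and fitted over all 12 arrays with 1 mean per group in limma 3.58.1 (statmod 1.5.0, R 4.3.3), with an intensity trend and robust moderation, and two-sided p-values were Benjamini-Hochberg adjusted across these 45037 (limma, threshold 0.05). A gene was read from its probe set with the highest mean over the 8 arrays of days 8 and 15. Its other probe sets did not always pass. For example, 1 of 4 probe sets rose for each of *Timp3*, *Dcx* and *Fabp4*, and 1 of 4 fell for *Grhl2*. For each of *Pdgfra*, *Tgfbr2* and *Ednrb* 1 of 3 rose.

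Named genes are the 15 with the largest change each way (adjusted p passed, days apart, mean of the brighter day at least 100), up to 8 members per list with members whose role a sentence needs, genes that the study measured otherwise, and the 10 with the largest genotype difference each way. Members and the 50 lists were chosen with earlier results of these data known. Of 746 listed genes 685 were read. The fit was tested on simulated data. It called 47.2% of probe sets given a 1.8-fold change, 66.0% at 2-fold and 94.9% at 4-fold. Of unchanged probe sets it called 0.0147%. The simulated spread of a probe set was the same in every group. The simulation therefore cannot show what the wider spread of the WT replicates does to the p-values. Of the 9 words searched on both strands of promoters of 5 lists, GAGGAA, GAGGAAGT and ATGCAAA are reported. AATCCACA, TGACCTTTG, CAAAGTCCA, the HNF1 palindrome and the CArG box matched 0 list genes and TGATTTAT 1. Tables were made with pandas 2.3.3 and figures with matplotlib 3.10.9.

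The labels do not say whether replicate numbers pair the samples, and the main fit did not pair them. The deviations of same-numbered arrays correlated at 0.0529 in WT and 0.0319 in KO cells. These values run over all probe sets, many of them dim, and so cannot settle whether the samples were paired. Alternatives were an offset of 32, quantile normalization, median centring, brighter probe sets (mean at least 100), no trend or robust moderation, fewer arrays, a replicate block, the methods' t-test, the study's 1.8-fold rule, each array left out, and averaging every probe set of a gene.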

Additional observations from a re-analysis of the deposited data

Results flagged for a closer look

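The change from day 8 to day 15 differed between WT and KO cells in the genes below, by the interaction term of the limma fit, adjusted over all probe sets. In a fit to the 8 arrays of days 8 and 15 alone, 6 of these genes passed and 27 did not. Their differences kept the same sign there. Values are the WT change minus the KO change on the log2 scale, with 2 arrays per group. Groups of 2 are too small for a test of single outlying arrays.

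Among genes that fell in WT cells, the difference was -3.9 for *Tdgf1*, -3.12 for *Lhx1*, -3.04 for *Olig1*, -2.99 for *Eomes*, -2.41 for *Eras*, -2.27 for *Dnmt3b*, -2.22 for *Cth* and -1.61 for *Sfn*. For *Zfp365*, *Dscaml1* and *Atg9b* it was -2.08, -1.89 and -1.83.

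Macrophage genes had differences of 4.4 for *C1qc*, 4.37 for *Mrc1*, 4.36 for *Tyrobp*, 4.33 for *C1qb*, 3.35 for *Ctss*, 2.84 for *Mpeg1* and 2.55 for *C1qa*. For *Fabp4*, which macrophages and adipocytes express, it was 3.56, and for the complement inhibitor *Serping1* 1.81.

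Matrix and secreted proteins had differences of 4.43 for *Fmod*, 2.84 for *Col6a2*, 2.34 for *Igfbp1*, 2.29 for *Sfrp2* and 2.09 for *Sfrp1*. The keratins *Krt15*, *Krt5* and *Krt4* had 2.29, 1.58 and 1.17. The values for *Gabrp*, *Gucy1a1*, *Tac2*, *Aldh1a2* and *Elf5* were 2.93, 2.85, 2.56, 1.48 and 1.36.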

How the results depend on the processing

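Genes higher and lower at day 15 numbered 1776 and 2046. They numbered 161 and 60 in a fit to the 4 WT arrays alone, and 963 and 681 genes passed a 1.8-fold rule with no test. An unpaired t-test on the 4 WT arrays gave 0 and 0 after Benjamini-Hochberg and 1187 and 1056 before it. With 1 WT array left out they numbered 1065 to 2217 and 962 to 2634. The fit with a replicate block gave 1986 and 2175, and the other alternatives stayed within 1.5 times. Median centring gave 1559 and 2355. No gene called higher was called lower under any alternative, or the reverse. List counts were also much smaller in the fit to the 4 WT arrays alone. There 7 of 17 macrophage genes rose, 3 of 17 collagen and matrix genes and 1 of 17 of yolk sac and liver. Of 14 endothelial genes 0 rose. The pluripotency list had 2 of 24 genes lower, the primed epiblast 4 of 6 and the primitive streak 3 of 12. Of 30 cell cycle genes and 13 telomerase and telomere genes 0 fell.

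Genes more positive and more negative in WT than KO cells numbered 82 and 42. They numbered 38 and 30 over brighter probe sets, 77 and 22 with an offset of 32, 75 and 27 without trend or robust moderation, 17 and 2 over the 8 arrays of days 8 and 15, 97 and 47 with the replicate block, and 7 to 418 and 1 to 598 with 1 array left out.

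Changes of sign occurred only in genes that had not passed: *Cdkn1a* (0.026 under quantile normalization, -0.48 to 0.40 with an array left out), *Pecam1* (-0.042 under quantile normalization, -0.034 under median centring, -0.16 to 0.18), *Acta2* (-0.026 under median centring, -0.44 over all probe sets, -0.055 by the fold rule, -0.45 to 0.48), *Tfcp2l1* (-0.008 over all probe sets, -0.084 to 0.80), *Klf4* (-0.46 to 1.15), *Cdk1* (-0.33 to 0.064), *Suz12* (-0.45 to 0.037), *Hbb-y* (-0.002 to 5.29) and *Mki67* (-0.21 to 0.41). The cause was not tested. Values under the array medians limit what dim genes can show.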
